A study of Homo sapiens with 6 samples.

Results

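Mitochondrial ribosomal protein genes were followed in OE19 cells, a line derived from an oesophageal adenocarcinoma, after inhibition of the microRNA miR-451a. The genes were the rows whose symbol was MRPL or MRPS followed by a number and at most 1 letter, which gave 76 of the 13345 genes measured. The comparison asked which messenger RNAs differed after inhibition of miR-451a. The negative control group was transfected with Negative Control A of the miRCURY LNA Power inhibitors, and the inhibitor group with the inhibitor of miR-451a from the same line, where LNA is a locked nucleic acid. Each group had 3 samples, numbered by the independent experiment they came from. No source says whether the sequenced cells had been irradiated. OE19 is a single line, and miR-451a itself was not measured in the table analysed here. The names control 1 to 3 and inhibitor 1 to 3 denote these samples.

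Mitochondria carry their own ribosome, which translates the few messenger RNAs encoded by mitochondrial DNA, all of them for subunits of the respiratory chain and the ATP synthase. Every protein of this ribosome is encoded in the nucleus, made in the cytosol and imported. Some have a counterpart in the bacterial ribosome, and others were added during the evolution of mitochondria. The large subunit forms peptide bonds and releases the new chain at the inner membrane, and the small subunit holds the messenger RNA and reads its codons.

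Of the 76 genes, 50 encode large subunit proteins, 25 encode small subunit proteins and 1, MRPS36, encodes a protein now assigned to the 2-oxoglutarate dehydrogenase complex and not to the ribosome. The symbols do not always follow the subunit, since the products of MRPS30 and MRPS18A lie in the large subunit. The large subunit genes comprised 29 bacterial-type and 21 mitochondria-specific genes, and the small subunit genes comprised 15 and 10. MRPS24 was not analysed here, and subunits with other kinds of symbol, such as DAP3, were outside the rule and are described apart. Of the 76 genes, 75 were matched to RefSeq coordinates of GRCh38.p14, and they lay on 21 chromosomes, with at most 8 on any 1 of them. RefSeq lists pseudogenes for 41 of the genes, 105 in all, and reads of such copies may be shared with the parent gene. The spans of 31 of the genes overlapped that of another gene, and the sources do not say whether counting used strand.

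The adjusted counts summed to between 14084387 and 18726440 per sample, and the authors' scaled values to between 14708080 and 15974583. All 7 columnar epithelium markers (EPCAM, CDH1, KRT8, KRT18, KRT19, VIL1 and ERBB2) were present, with summed values of 144018.8 to 208387.5 in the controls and 155526.4 to 215927.4 in the inhibitor samples. Of the markers of other cell types, the table listed 2 of 4 for fibroblasts, with summed values of 266.7 to 340 in the controls and 251.9 to 303.6 in the inhibitor samples. It listed 1 of 3 each for leukocytes and endothelium, 0 of 3 for erythroid cells and 2 of 3 for squamous epithelium. In controls against inhibitor samples, the leukocyte marker had 10.67 to 24.81 against 3.114 to 35.42. The endothelium marker had 1.034 to 6.564 against 4.048 to 31.14, and the squamous markers 39.38 to 111.6 against 33.04 to 47.56. Inhibitor 3 stood apart, since 35.7% of the tested genes lay over 1.5-fold away from their median in the other 5 samples, against 5.75% to 11.3% in each other sample. Values without it are given for some counts over the mitochondrial ribosomal protein genes, such as the number higher with the inhibitor. They are also given for some of the genes whose difference it moved. The other counts include inhibitor 3.

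The mitochondrial ribosomal protein genes were all expressed, most of them at levels within a few-fold of each other. Levels are the deposited values, which the authors had adjusted for gene length and GC content. The mean value over the 6 samples ranged from 58.6 for MRPL46 to 3651 for MRPS10, a 62.3-fold range. The median was 854, the quartiles were 565.5 and 1288.5, and 54 of the 76 genes lay between 500 and 2000. All 76 had a mean value of at least 50 and so passed the filter of 10 that left 12723 genes to test. The median level was 935 over the 50 large subunit genes and 781 over the 25 small subunit genes.

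At the upper end, MRPS10, a bacterial-type protein of the small subunit, had values of 4048, 3659 and 3345 in controls 1 to 3 and 4115, 3662 and 3076 in inhibitor samples 1 to 3. MRPL3, a bacterial-type protein of the large subunit whose mutations cause a mitochondrial disease of the heart, had 3876, 3765 and 3132 against 4191, 3720.1 and 2704. MRPL14, a bacterial-type protein of the large subunit, had 3337, 3426 and 3173 against 3459.5, 3479 and 2301. In each of these genes inhibitor 1 was among the high samples and inhibitor 3 was the lowest, so the groups overlapped. MRPS35, a mitochondria-specific protein of the small subunit, came next with 2417, 2245 and 2379 against 2772, 2458 and 2681, and its inhibitor samples all lay above its controls.

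At the lower end, MRPL46, a mitochondria-specific protein of the large subunit, had values of 64.0, 55.5 and 61.0 in the controls and 75.4, 62.7 and 33.2 in the inhibitor samples. MRPL38, also mitochondria-specific and large subunit, had 101, 98.3 and 92.0 against 98.1, 104 and 58.1. The controls of both genes lay close together, and inhibitor 3 was the only sample far below them. MRPS28, a small subunit protein, had 148, 157 and 147 against 151, 139.7 and 142, with little spread in either group. MRPS18C, the closest counterpart of bacterial S18 in the small subunit, had 167, 88.7 and 97.2 against 262, 122 and 114. Sample 1 of each group was the high one for MRPS18C, and RefSeq lists 6 pseudogenes for it. The lowest value of any of the 4 highest genes (2245) exceeded the highest value of any of the 4 lowest (262), whereas the values of MRPS10 and MRPL3 overlapped fully, as did MRPS18C and MRPS28.

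The promoters of 5 of these genes are shown because they carry the motifs that recurred in the set, and because they belong to the most and least abundant members (MRPS10 and MRPL46), to the gene with the smallest p (MRPS33) and to a large and a small subunit gene named for their roles (MRPS18A and MRPS12). The sequences are from RefSeq on GRCh38.p14, 5′ to 3′ on the strand of the gene, from 250 bases before the first listed start to 50 bases from it. Capitals mark matches on either strand to an ETS motif (CCGGAAG), a YY1 motif (AANATGGCG) or an NRF1 motif (GCGCA and GCGC with any base between them). ETS factors, YY1 and NRF1 are known activators of genes for mitochondrial proteins. MRPS33 lies on chr7:141014903-141015202 (minus strand), MRPS10 on chr6:42217812-42218111 (minus), MRPS18A on chr6:43687742-43688041 (minus), MRPL46 on chr15:88467339-88467638 (minus) and MRPS12 on chr19:38930694-38930993 (plus).
MRPS33: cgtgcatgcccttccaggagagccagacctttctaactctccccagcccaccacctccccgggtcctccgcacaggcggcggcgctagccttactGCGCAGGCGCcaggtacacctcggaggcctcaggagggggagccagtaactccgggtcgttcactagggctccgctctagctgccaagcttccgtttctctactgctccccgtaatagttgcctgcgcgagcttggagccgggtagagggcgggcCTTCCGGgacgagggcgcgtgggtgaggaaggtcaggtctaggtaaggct
MRPS10: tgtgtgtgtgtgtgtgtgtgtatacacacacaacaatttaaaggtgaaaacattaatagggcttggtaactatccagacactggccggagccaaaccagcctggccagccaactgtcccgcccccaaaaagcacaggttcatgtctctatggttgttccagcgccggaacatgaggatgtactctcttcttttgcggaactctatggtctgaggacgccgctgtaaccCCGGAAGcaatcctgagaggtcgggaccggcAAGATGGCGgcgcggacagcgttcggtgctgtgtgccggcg
MRPS18A: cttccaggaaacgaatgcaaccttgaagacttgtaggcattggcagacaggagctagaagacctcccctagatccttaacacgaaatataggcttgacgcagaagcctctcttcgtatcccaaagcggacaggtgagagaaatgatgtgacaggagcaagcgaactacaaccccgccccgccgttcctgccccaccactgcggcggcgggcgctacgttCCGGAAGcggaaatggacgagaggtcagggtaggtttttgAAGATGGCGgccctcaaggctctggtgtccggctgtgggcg
MRPL46: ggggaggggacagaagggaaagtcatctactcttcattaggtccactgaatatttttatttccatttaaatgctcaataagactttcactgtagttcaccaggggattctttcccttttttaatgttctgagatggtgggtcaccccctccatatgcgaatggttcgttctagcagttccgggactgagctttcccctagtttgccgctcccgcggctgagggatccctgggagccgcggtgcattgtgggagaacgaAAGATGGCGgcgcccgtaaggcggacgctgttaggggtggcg
MRPS12: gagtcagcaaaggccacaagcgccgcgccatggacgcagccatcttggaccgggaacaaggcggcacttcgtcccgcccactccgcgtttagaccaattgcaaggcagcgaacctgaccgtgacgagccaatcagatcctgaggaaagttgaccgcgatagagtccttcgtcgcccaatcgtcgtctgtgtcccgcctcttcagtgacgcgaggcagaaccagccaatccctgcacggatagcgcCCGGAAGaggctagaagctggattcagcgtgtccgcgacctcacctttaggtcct

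Positions are those of the first base of a match, counted from 0 at the start, with upstream positions negative. In MRPS10 and MRPS18A the ETS match lay upstream of the start, at positions -22 and -31, and a YY1 match began at position 9 in both. MRPL46 had a YY1 match at position 8 and no ETS match, and MRPS12 had an ETS match at position -5. MRPS33 had an ETS match on the opposite strand at position 0 and an NRF1 match at position -155.

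Promoters of that kind were matched for 67 of the 76 genes and for 9716 tested protein-coding genes. An ETS match was found in 28 of the 67 (41.8%) against 19% of the 9716, and a YY1 match in 17 (25.4%) against 6.92%. Both motifs together were found in 4 (5.97%) against 1.45%. An NRF1 match was found in 8 (11.9%) against 11.6%. The general promoter motifs CCAAT and GGGCGG were found in 20 (29.9%) against 36.4% and in 40 (59.7%) against 69.6%, and TATAAA in 2 (2.99%) against 5.67%. The matches were placed unevenly, since 26 of 37 ETS matches lay within 50 bases of the start and 15 of 19 YY1 matches began at the start or after it. The median position was -22 for ETS, 9 for YY1 and -110 for NRF1. Positions were not counted in the promoters of the other tested genes, so this placement has no background beside it. These are counts of letters in a fixed window, and binding was not measured. The YY1 motif contains the letters ATG of a start codon. Whether the matches after the annotated start mark translation starts was not tested.

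**Figure D1:**
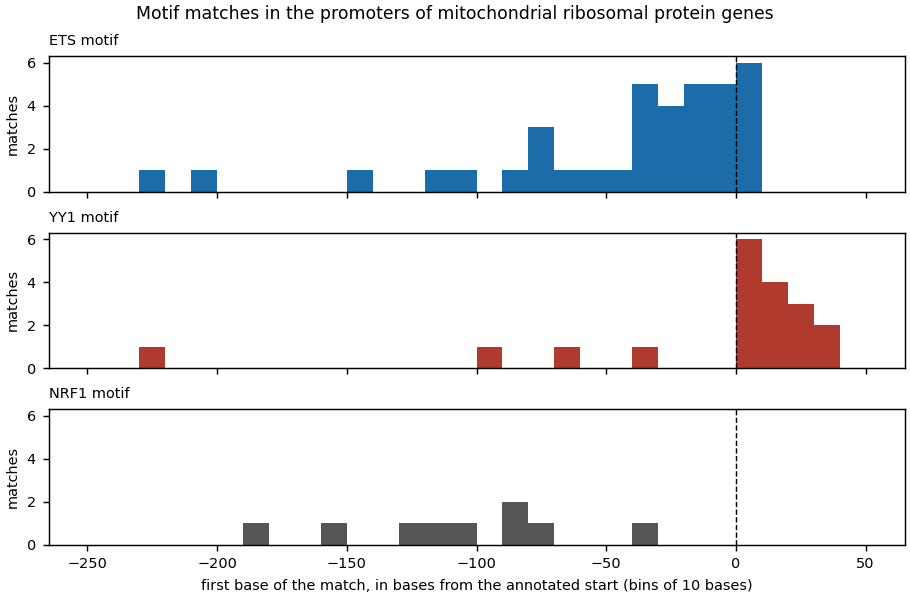
Position of each motif match in the promoters of 67 mitochondrial ribosomal protein genes, as the number of matches in bins of 10 bases from the annotated start (dashed line). The ETS matches crowd just upstream of the start, 15 of the 19 YY1 matches begin at the start or after it, and the 9 NRF1 matches lie upstream. Positions in the promoters of other genes were not counted.

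Of the 67 genes with a promoter, 25 (37.3%) had the start of another gene on the opposite strand within 1000 bases upstream, against 28.2% of the tested protein-coding genes. These included MRPL46 and MRPS11, whose starts lay 320 bases apart, and MRPS12 and SARS2, the mitochondrial seryl-tRNA synthetase, which lay 181 bases apart. The genes with an ETS match had a median level of 948 and a median log2 difference between inhibitor and control of 0.03, and those without had 791 and 0.02. With and without a YY1 match the median levels were 675 and 918, and the median log2 differences were 0.01 and 0.03.

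With the miR-451a inhibitor, none of the 76 mitochondrial ribosomal protein genes passed the test. The counts were 0 of 76 at a Benjamini-Hochberg adjusted p of 0.05 with limma (smallest adjusted p = 0.899), and 0 of 76 with edgeR and with DESeq2. Over all 12723 genes tested with limma, 0 passed as well (0%). At an unadjusted p below 0.05 there were again 0 of the 76 with each of the 3 tools, against 0.935% of all genes with limma, 1.28% with edgeR and 1.96% with DESeq2. The smallest unadjusted p was 0.0832 in limma, for MRPS33. The test sets each difference against the spread between these samples. In bulk RNA a change in all cells and a change in some of them cannot be told apart.

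The log2 differences, on the log2(value + 1) scale, ran from -0.38 for MRPS6 to 0.54 for MRPS33, with a median of 0.03 against -0.0035 over all genes. They were above 0 for 48 of the 76 genes (63.2%) and below 0 for 28, against 49.4% above 0 over all genes. This direction depended on single samples. Without inhibitor 1 the count above 0 was 30, against 48.9% of all genes, with a median of -0.045. Without control 3 it was 39, against 49.5% of all genes, with a median of 0.007. Without inhibitor 3 it was 67, against 50% of all genes, with a median of 0.107. The spread of the set was below that of all genes, whose median level was lower (435 against 854). The median SD of log2 values was 0.0988 in the controls and 0.188 in the inhibitor samples, against 0.15 and 0.305 over all genes. The lists of related genes described below had 0.0678 to 0.162 in the controls and 0.151 to 0.26 in the inhibitor samples. For 59 of the 76 genes (77.6%) the 95% interval of the difference lay within 1.5-fold in both directions. The share was 40.3% over all genes and 30.8% to 100% in the related lists. The median half-width was 0.349 against 0.486 over all genes.

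**Figure D2:**
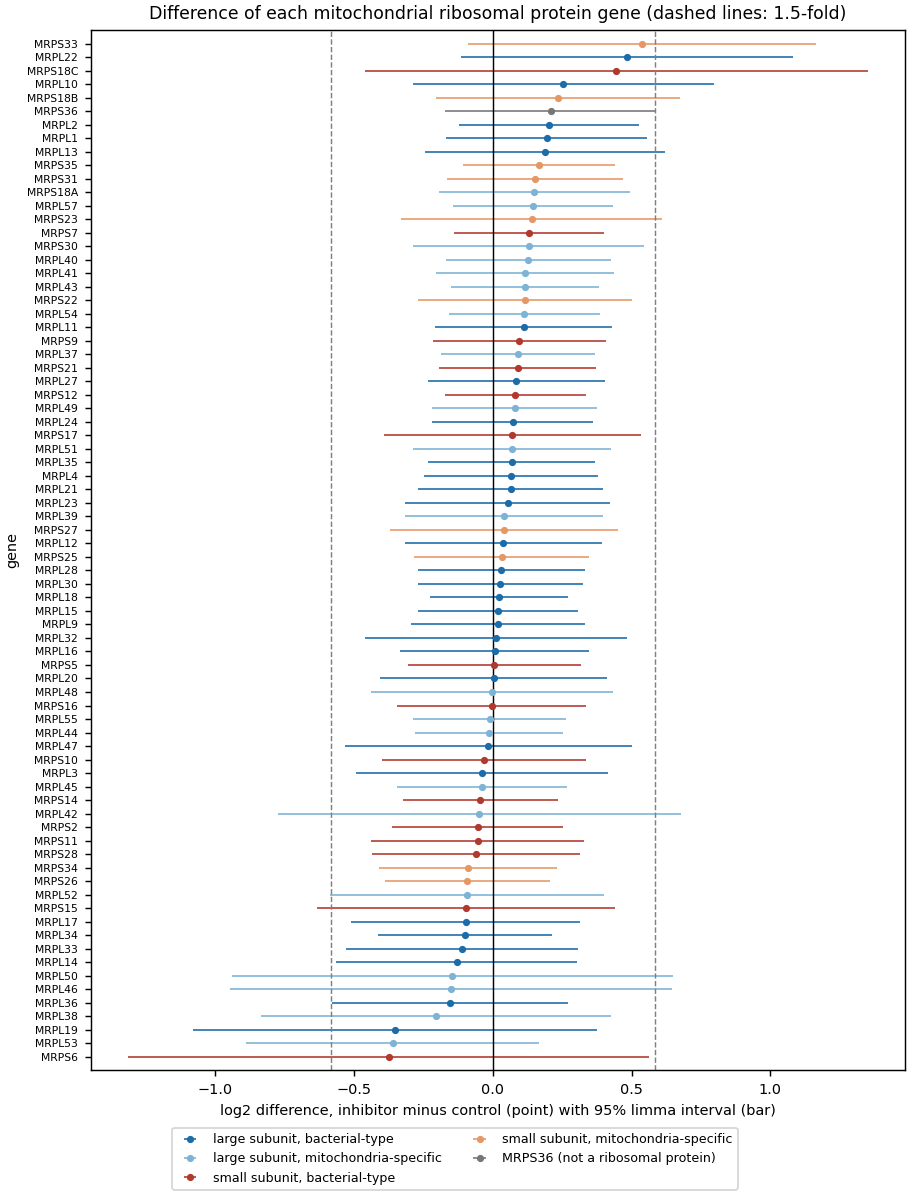
Log2 difference of each of the 76 genes, inhibitor minus control, with its 95% limma interval (horizontal axis, log2 units), ordered by the difference and coloured by subunit and origin, with dashed lines at 1.5-fold. Every interval includes 0, and 59 of the 76 lie between the dashed lines.

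The inhibitor samples did not overlap the controls and lay above them for 4 of the 76 genes (MRPL22, MRPL43, MRPS12 and MRPS35), against 2.71% of all genes, and below them for 1 (MRPL53), against 2.9%. MRPL43, a mitochondria-specific protein of the large subunit named here after its values were seen, had values of 488, 472 and 484 in the controls and 508, 525 and 531 in the inhibitor samples. Both groups were tight and the step between them was small, with a log2 difference of 0.12 ± 0.11. Where samples were compared within each numbered experiment, the inhibitor sample was higher in all 3 experiments for 14 genes (18.4%) and lower in all 3 for 1 gene (1.32%). Over all genes these shares were 12.2% in each direction. Within experiment 1 alone the inhibitor sample was higher for 67 of the 76 genes, so few could be lower in all 3. Within experiments 2 and 3 it was higher for 38 and 36. The 14 genes were MRPL13, MRPL18, MRPL22, MRPL40, MRPL43, MRPS7, MRPS9, MRPS12, MRPS18A, MRPS18C, MRPS31, MRPS33, MRPS35 and MRPS36, and the single lower gene was MRPL53. Of the 14, 7 were among the 25 small subunit genes and 6 among the 50 large subunit genes.

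The 5 higher genes with the smallest p were MRPS33, MRPL22, MRPL2, MRPS35 and MRPS36. MRPS33, a small mitochondria-specific protein of the small subunit, had values of 413, 282 and 258 in controls 1 to 3 and 612, 335 and 449 in inhibitor samples 1 to 3. Control 1 lay within the inhibitor range, but the inhibitor sample was the higher one in each experiment. The log2 difference was 0.54 ± 0.27 (SE, n = 3 per group), with an adjusted p of 0.899 in limma. Without inhibitor 1 the difference was 0.32. With the experiment as a replicate block its adjusted p in limma was 0.848. RefSeq lists 4 pseudogenes for MRPS33.

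MRPL22, a bacterial-type protein that lines the exit tunnel of the large subunit, had values of 197, 198 and 167 in the controls and 386, 208 and 222 in the inhibitor samples. The groups did not overlap, but inhibitor 1 alone stood far above the rest. Its log2 difference was 0.48 ± 0.26 (SE, n = 3 per group), with an adjusted p of 0.899 in limma, and without inhibitor 1 it was 0.20. MRPL2, a bacterial-type protein near the peptidyl transferase centre, had 2079, 2002 and 1804 against 2259.9, 1986 and 2554, and inhibitor 2 lay within the control range. The difference for MRPL2 was 0.20 ± 0.14, and without inhibitor 3 it was 0.11.

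MRPS35 lay above its controls in every inhibitor sample, but by little, and its log2 difference was 0.17 ± 0.12 with an interval of -0.11 to 0.44. MRPS36 had values of 275, 234 and 307 in the controls and 326, 282 and 331 in the inhibitor samples, with a difference of 0.21 ± 0.16, and its groups overlapped.

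The 5 lower genes with the smallest p were MRPL53, MRPL19, MRPS6, MRPL36 and MRPL38, and in each of them inhibitor 3 was the lowest of the 6 samples. MRPL53, a mitochondria-specific protein of the large subunit, had values of 217, 204 and 239 in the controls and 198, 201 and 124.5 in the inhibitor samples. It was the only gene of the 76 whose inhibitor samples all lay below the controls, and its log2 difference was -0.36 ± 0.23 (SE, n = 3 per group), with an adjusted p of 0.899 in limma.

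MRPL19, a bacterial-type protein at the interface of the subunits, had values of 765, 773 and 782 in the controls and 841, 753 and 351 in the inhibitor samples. Its controls were nearly equal, and inhibitor 3 alone lay far below them. The log2 difference was -0.35 ± 0.31, and without inhibitor 3 it was 0.04. MRPS6, a bacterial-type protein of the small subunit, had 333, 518 and 692.5 against 483, 533 and 212. Its controls spanned a wide range, and its difference of -0.38 ± 0.40 became 0.04 without inhibitor 3.

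MRPL36, a short bacterial-type protein of the large subunit, had values of 699, 713.5 and 702 in the controls and 749.5, 703 and 482 in the inhibitor samples, and its log2 difference was -0.15 ± 0.18. Inhibitor 3 was again the sample apart. The difference for MRPL38 was -0.20 ± 0.27. Without inhibitor 3 these 2 differences were 0.04 and 0.06, and that of MRPL53 was -0.14.

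**Figure D3:**
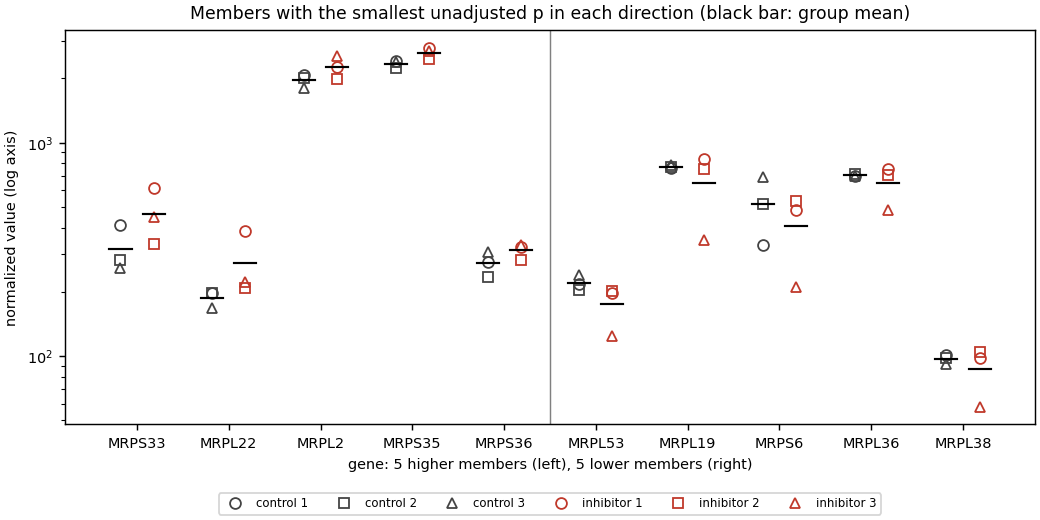
Normalized value (log axis) in each of the 6 samples for the 5 higher and the 5 lower genes with the smallest unadjusted p, with grey symbols for controls, red symbols for inhibitor samples, one symbol shape for each experiment and black bars for group means. Inhibitor 3 (red triangle) is the lowest sample in all 5 lower genes, and inhibitor 1 (red circle) is the highest in MRPS33 and MRPL22.

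None of the large subunit genes known for their roles passed the test. MRPL12, which forms the flexible stalk that binds translation factors, had values of 524, 642 and 523 in the controls and 649, 576 and 509 in the inhibitor samples. MRPL11, at the base of that stalk, had 1579, 1613 and 1308 against 1777, 1520.0 and 1552. The groups overlapped in both, with log2 differences of 0.04 ± 0.15 for MRPL12 and 0.11 ± 0.14 for MRPL11. MRPL10, which anchors the stalk proteins, had 1037, 956 and 763 against 979.7, 861 and 1519, so that inhibitor 3 alone was high. Its difference was 0.25 ± 0.23 with an interval of -0.29 to 0.80. MRPL10 was chosen after its values were seen.

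MRPL45, which attaches the ribosome to the inner membrane, had values of 679, 774 and 837 in the controls and 704, 719.5 and 799 in the inhibitor samples. MRPL44, whose fold resembles that of ribonuclease III, had 714, 778 and 751 against 774, 744 and 704. Both genes were nearly level across the samples, with log2 differences of -0.04 ± 0.13 and -0.01 ± 0.11 and intervals of -0.35 to 0.27 and -0.28 to 0.25. MRPL41, a mitochondria-specific protein, had 1296, 1221 and 1241 against 1285, 1216 and 1599, and only inhibitor 3 lay outside the control range by more than the control spread. MRPS30, a large subunit protein despite its symbol, had 396, 419 and 345 against 499.7, 342 and 438, and its groups overlapped. The differences for MRPL41 and MRPS30 were 0.12 ± 0.14 and 0.13 ± 0.18. Without inhibitor 3 that of MRPL41 was -0.0021, and without inhibitor 1 that of MRPS30 was 0.0069.

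None of the small subunit genes with known roles passed the test either. MRPS12, a bacterial-type protein of the decoding centre, had values of 1511, 1441 and 1528 in the controls and 1652, 1546 and 1543 in the inhibitor samples. The groups of MRPS12 did not overlap, although they were separated by only the gap between 1528 and 1543, and its log2 difference was 0.08 ± 0.11. MRPS2, a bacterial-type protein of the small subunit, had 1392, 1328 and 1195 against 1183, 1418 and 1174, and its groups overlapped fully. MRPS16, a bacterial-type protein mutated in a human disorder of mitochondrial translation, had 1359, 1517 and 1232 against 1475, 1458 and 1169.7. The interval of the difference was -0.36 to 0.25 for MRPS2 and -0.35 to 0.34 for MRPS16.

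Among mitochondria-specific small subunit genes, MRPS22, also mutated in a human mitochondrial disorder, had values of 624, 509.5 and 536 in the controls and 729.9, 554 and 536 in the inhibitor samples. MRPS27, a pentatricopeptide repeat protein, had 447, 483 and 419.6 against 552, 483 and 369.5. The inhibitor samples lay on both sides of the controls in MRPS27, and inhibitor 1 was the highest sample in both genes. The groups overlapped, with log2 differences of 0.11 ± 0.16 and 0.04 ± 0.18.

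The human genome holds 3 genes for counterparts of bacterial S18, and their products occupy different places in the ribosome. MRPS18A, in the large subunit, had values of 1571, 1419.5 and 1496 in the controls and 1599, 1440.1 and 1976 in the inhibitor samples. MRPS18B, in the small subunit, had 1024, 1085 and 979 against 1132, 983 and 1597. Inhibitor 3 was the highest sample for MRPS18A and MRPS18B, whereas it was among the lower ones for MRPS18C, where inhibitor 1 was highest. The log2 differences were 0.15 ± 0.15, 0.24 ± 0.19 and 0.45 ± 0.39 for MRPS18A, MRPS18B and MRPS18C, all with an adjusted p of 0.899 in limma. Without inhibitor 3 the differences were 0.02 for MRPS18A and 0.04 for MRPS18B, and without inhibitor 1 that of MRPS18C was 0.06. At 142, the mean level of MRPS18C was far below those of the other 2, which had group means of 1029 to 1672.

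By subunit and origin, 21 of the 29 large bacterial-type genes were higher with the inhibitor, with a median log2 difference of 0.03, and 11 of the 21 large mitochondria-specific genes, with a median of 0.04. Of the small subunit genes, 7 of 15 bacterial-type genes were higher, with a median of -0.0043, and 8 of 10 mitochondria-specific genes, with a median of 0.13. Over all genes 49.4% were higher. In all 4 groups the median deviation from the control mean was highest in inhibitor 1 (0.146 to 0.248). For the small mitochondria-specific genes it was 0.248 in inhibitor 1, 0.0123 in inhibitor 2 and -0.0427 in inhibitor 3. None of the genes of these 4 groups passed the test, and the differences between the groups were not tested.

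The inhibitor samples differed among themselves. Relative to each gene's control mean, the median deviation over the 76 genes was 0.04, 0.02 and -0.06 in controls 1 to 3. It was 0.19 in inhibitor 1, where 68 of the 76 genes lay above their control mean, 0.03 in inhibitor 2 (46 of 76) and -0.05 in inhibitor 3 (28 of 76). Over all 12723 genes tested, 6473, 6455 and 6324 lay above their control mean in inhibitor samples 1 to 3. By the medians inhibitor 2 was within the range of the controls, and inhibitor 1 was above it. The control mean includes each control, which draws the control deviations, but not those of the inhibitor samples, towards 0. Within experiment 1 the inhibitor sample was higher for 67 of the 76 genes (88.2%), within experiment 2 for 38 (50%) and within experiment 3 for 36 (47.4%). Over all genes the corresponding shares were 51.1%, 49.2% and 49.7%.

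**Figure D4:**
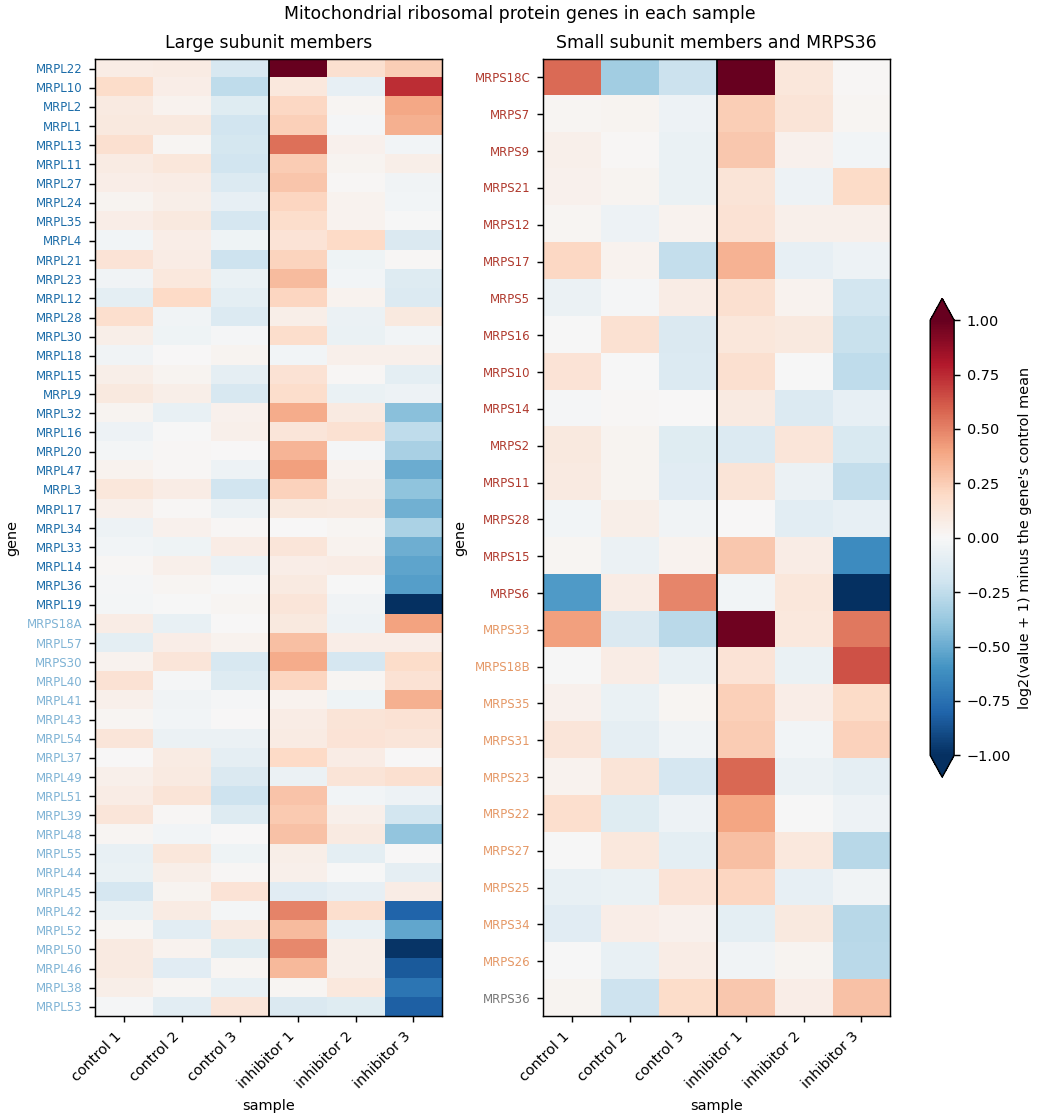
Log2(value + 1) minus the gene's control mean (colour scale, red higher and blue lower, cut at 1 on either side) for each of the 76 genes in each of the 6 samples, large subunit genes on the left, small subunit genes and MRPS36 on the right, ordered within subunit and origin by the difference. The column of inhibitor 1 is mostly red, with 68 of 76 genes above their control mean, against 6473 of 12723 over all genes. The column of inhibitor 3 holds the strongest blue.

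Few genes carried the deviations beyond 1.5-fold. In inhibitor 3, 10 of the 76 genes (13.2%) lay over 1.5-fold away from their median in the other 5 samples, against 35.7% of all genes. Of these, 8 were lower (MRPS6, MRPL19, MRPL50, MRPL46, MRPL42, MRPL38, MRPL53 and MRPS15) and 2 were higher (MRPL10 and MRPS18B). In inhibitor 1, 4 genes (5.26%) did so and all were higher (MRPL22, MRPS18C, MRPS23 and MRPS33), against 11.3% of all genes. Controls 1 and 3 had 1 gene each, MRPS6 and MRPS33, both lower, and control 2 and inhibitor 2 had 0 such genes.

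The values of MRPL50, a mitochondria-specific protein of the large subunit, show the extent, at 1530.2, 1473 and 1324 in the controls and 2009, 1499.8 and 729.6 in the inhibitor samples. Inhibitor 1 was the highest of the 6 samples and inhibitor 3 the lowest. MRPL42, another such protein, had 531, 588 and 549 against 782, 623 and 318, in the same order. MRPL50 and MRPL42 were chosen after their values were seen. The highest of the 6 values was less than 1.5 times the lowest for 51 of the 76 genes and over 2 times for 8, among them MRPS6 with a ratio of 3.27 and MRPS18C with 2.96.

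Genes that work with the mitochondrial ribosome were grouped by role, and none of their members passed an adjusted p of 0.05 in limma. Among the 6 other-named subunits of the ribosome, 2 were higher and the median log2 difference was -0.0063. DAP3, a GTP-binding subunit of the small subunit, had values of 2302, 2003 and 2098 in the controls and 2612, 1974 and 2102 in the inhibitor samples, and GADD45GIP1, of the large subunit, had 934.6, 991 and 948.8 against 977.7, 951 and 765. Their groups overlapped, and inhibitor 3 lay below the control mean for 6 of the 6.

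Of 25 assembly factors 12 were higher (median -0.01), of 13 translation factors 6 (median -0.0090), of 20 mitochondrial aminoacyl-tRNA synthetases 8 (median -0.07) and of 19 genes of mitochondrial transcription and messenger RNA stability 8 (median -0.05). In each of these lists the 2 genes with the smallest p had log2 differences of -0.49 (MTG1) and 0.33 (NOA1), 0.27 (GUF1) and 0.27 (MTIF2), -0.37 (MARS2) and 0.28 (WARS2), and -0.44 (PPARGC1B) and -0.33 (GABPA). Without inhibitor 3 those of MTG1, NOA1, GUF1, MTIF2 and MARS2 were -0.235, 0.114, 0.121, 0.0692 and -0.177. GABPA, the DNA-binding part of an ETS factor that acts on genes for mitochondrial proteins, had values of 423, 514.8 and 552 in the controls and 332, 422 and 429 in the inhibitor samples. Its groups overlapped only through control 1, and its adjusted p was 0.899 in limma.

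The messenger RNAs that the mitochondrial ribosome translates are encoded in the mitochondrial genome, and 11 of their 13 genes were higher, with a median log2 difference of 0.13. Within experiments 1 and 3 the inhibitor sample was higher for 9 and 12 of the 13 genes, but within experiment 2 for only 2. MT-ATP6, a subunit of the ATP synthase, had values of 12355, 11824 and 10612 in the controls and 20671, 11750.3 and 12911 in the inhibitor samples, so inhibitor 1 alone was high. MT-ND5, a subunit of complex I, had 29249, 26612 and 48381 against 27529, 25603 and 29915, with control 3 alone high. The log2 differences were 0.34 ± 0.25 for MT-ATP6 and -0.28 ± 0.30 for MT-ND5, and they were 0.09 without inhibitor 1 and -0.01 without control 3, respectively.

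Of 80 nuclear genes of the respiratory chain, 66 were higher, with a median of 0.08. Among them, NDUFB5 and NDUFA7, of complex I, had log2 differences of 0.64 ± 0.25 and -1.83 ± 0.68, both with an adjusted p of 0.899 in limma. NDUFA7 had values of only 24.6, 15.0 and 18.6 in the controls and 13.4, 2.02 and 3.11 in the inhibitor samples, and NDUFB5 had 1261, 985 and 1106 against 2017, 1177 and 2209.6.

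The cytosolic ribosomal proteins, which build the other ribosome of the cell, had 75 of 80 genes higher and a median of 0.20. They departed from the mitochondrial set in inhibitor 3, where their median deviation was 0.35 and that of the mitochondrial ribosomal protein genes was -0.05, while both lay above the controls in inhibitor 1 (0.29 and 0.19). In inhibitor 2 the cytosolic median was -0.03, with 31 of 80 genes above their control mean, and that of the mitochondrial genes was 0.03. RPL12 had values of 20458.5, 26612 and 18004 in the controls and 27529, 37332 and 109616 in the inhibitor samples. Its log2 difference was 1.17 ± 0.52, and it was 0.58 without inhibitor 3. The values of RPL12 equalled those of MT-ND5 in control 2 and in inhibitor 1, so genes at such high levels can share a step. On percentile ranks the difference of RPL12 was only 0.234 percentile points. A row with the symbol RPL41 and values of 9.30 to 143 had a log2 difference of 2.08 ± 0.56. RPL12 and RPL41 both had an adjusted p of 0.899 in limma. The difference between the mitochondrial and the cytosolic set was not tested.

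**Figure D5:**
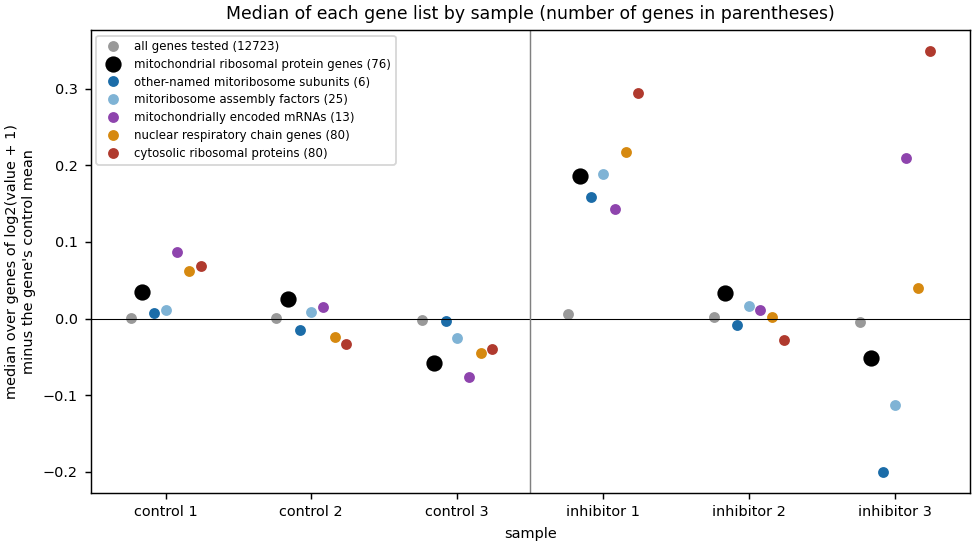
Median over the genes of each list of log2(value + 1) minus the gene's control mean (vertical axis, log2 units) in each of the 6 samples, with the number of genes in parentheses. The mitochondrial ribosomal protein genes (large black points) lie at 0.19 in inhibitor 1, where the other lists drawn, apart from all genes, lie between 0.143 and 0.294. They lie at -0.05 in inhibitor 3, where the cytosolic ribosomal proteins lie at 0.35. Lists not drawn were lower in inhibitor 1: 0.0695 for translation factors, 0.0361 for mitochondrial aminoacyl-tRNA synthetases and 0.0893 for mitochondrial transcription and messenger RNA stability.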

How the data were processed

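Messenger RNA of 6 OE19 samples was analysed from 1 table. Sample titles gave the groups and the experiment numbers. The methods and the submitters' processing notes name cutadapt 1.8 for trimming, FastQC 0.11.8 for read quality and STAR 2.7.0f for alignment to GRCh38. Within each sample the authors then adjusted gene counts for GC content and length, and they scaled samples with DESeq size factors. How genes were counted, and on which annotation release, is not given in the sources used here. What the authors deposited is thus a normalized signal for each gene. Divided by the smallest value above 0 of its sample, 100% of the values came out whole, within 0.001 of a whole number. They fall on 1852 to 2098 steps per sample, a median of 6 genes share the value of a given mitochondrial ribosomal protein gene, and the next step up was a median of 0.147% to 0.164% away.

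A mean value of 10 or more was required, which left 12723 genes. They were tested on the log2(value + 1) scale with limma 3.58.1 under R 4.3.3 (two-sided, eBayes with a trend), with p-values adjusted after Benjamini-Hochberg over all of them and called at 0.05. This scale understates the change of low genes. Tests of the recovered whole numbers with edgeR 4.0.16 and DESeq2 1.42.0 called 0 genes each. The Mann-Whitney test of the study has a smallest exact two-sided p of 0.1 with 3 samples against 3. The code was tested on simulated data. The study's text calls the transfection experiments independent, and the sample titles give only their numbers. Each p-value sets a difference against the spread between these samples.

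Since headers and design give both groups the same experiment numbers, samples were taken as paired by number. Across genes, the deviations of such pairs from the group means correlated at 0.21, 0.15 and -0.0040. Pairs with unlike numbers correlated at -0.38 to 0.227, so these values do not show the pairing. The main test had no block. Alternatives were the replicate block, other pseudocounts and filters, TMM and median-ratio scaling, leaving out each sample, sample weights, count tests and percentile ranks.

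The genes and lists were chosen with earlier results of these data known. Genes named were the 5 higher and 5 lower with the smallest p, the 4 highest and 4 lowest levels, 15 genes with known roles, and the 2 with the smallest p of each other list. Coordinates and promoters came from RefSeq by symbol, and motif letters were counted on both strands.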

Additional observations from a re-analysis of the deposited data

How the results depend on the processing

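The number of mitochondrial ribosomal protein genes past an adjusted p of 0.05 was 0 under every alternative run, as was the number of all genes. At an unadjusted limma p below 0.05 there was 1 gene with the replicate block (MRPS33, against 1.01% of all genes) and there were 2 with sample weights (MRPL22 and MRPS33, against 2.48%), and 0 in the main test. Leaving out a sample gave 0 to 1, which was MRPS33 without control 1 (0.99% of all genes) or without inhibitor 2 (10.7%) and MRPL42 without inhibitor 3 (1.41%). The replicate block left the 48 genes above 0 and the median of 0.034 as they were and changed no adjusted call. Leaving out a sample moved the count above 0 between 30 (without inhibitor 1) and 67 (without inhibitor 3), and the median between -0.045 and 0.107. Over all genes the shares above 0 were 48.9% without inhibitor 1 and 50% without inhibitor 3. The other alternatives gave 43 (percentile rank) to 63 (sample weights) genes above 0.

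Among 45 named genes, 7 of 494 values turned in sign under alternatives other than leaving out a sample. With sample weights these were MRPL36 (0.00019), MRPL14 (0.00078), MRPL3 (0.0659), MRPS10 (0.0567), MRPL46 (0.19) and MRPS16 (0.0030), and with DESeq2 MRPS16 (0.00016). Leaving out a sample turned 17 genes, with log2 differences of -0.173 to 0.143 for MRPL3, -0.13 to 0.0799 for MRPS10, -0.0504 to 0.135 for MRPL12, -0.0467 to 0.0225 for MRPL44, -0.0778 to 0.104 for MRPS16, -0.122 to 0.0293 for MRPL45, -0.0885 to 0.201 for MRPS27, -0.0261 to 0.199 for MRPS22 and -0.0647 to 0.137 for DAP3. They were -0.589 to 0.0413 for MRPL19, -0.657 to 0.0432 for MRPS6, -0.276 to 0.0429 for MRPL36, -0.356 to 0.0595 for MRPL38, -0.231 to 0.0676 for MRPL14, -0.387 to 0.192 for MRPL46, -0.00208 to 0.195 for MRPL41 and -0.167 to 0.00972 for GADD45GIP1. The cause was not tested. With 3 samples a group, a difference of 1.5-fold lay inside the interval of 17 of the 76 genes. Wide intervals occurred in low genes such as MRPL46 (-0.95 to 0.65) and MRPS18C, and in higher ones such as MRPL50 (-0.94 to 0.65). The low gene MRPS28 had a narrower one (-0.44 to 0.31).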
